A study of Mus musculus with 5 samples.

Results

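The genes described here are those of the IGF1 and insulin receptors and the molecules next to them: the ligand gene Igf1, the receptor genes Igf1r, Insr and Igf2r, the growth hormone receptor gene Ghr, and the adaptor genes Irs1 and Irs2. They were chosen by symbol, and all 7 were found among the 23478 symbols of the count table. RNA-Seq had been done on GFP-sorted cells of P6 mouse lung, from pups given 100 µg of tamoxifen on P0 and P1. Every pup carried Gli1creER, a tamoxifen-dependent Cre driven from the Gli1 locus, and the Rosa-EGFP reporter that Cre switches on. The 2 control libraries came from Igf1r Flox/Wildtype mice and the 3 Igf1r-deleted libraries from Igf1r Flox/Flox mice, so the controls were themselves able to lose 1 copy of Igf1r. No library came from mice without Cre. GFP therefore marked cells in which Gli1 was active at the time of tamoxifen and their descendants, and in the lung Gli1 is active in mesenchymal cells. The study's methods name both sexes and a mixed background, and how many pups went into a library is not given in the sources used here.

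IGF1R and the insulin receptor are closely related tyrosine kinases. Each is made as a precursor that is cut and assembled into dimers, and the receptors can pair with each other in hybrids. Ligand binding leads to phosphorylation of IRS1 and IRS2, which recruit PI3K and so activate AKT. IGF2R has no kinase and carries IGF2 and mannose 6-phosphate-tagged enzymes to lysosomes. Growth hormone acts through GHR, JAK2 and STAT5 and is the classical inducer of Igf1 in liver, while many mesenchymal cells make IGF1 locally. In the lung, fibroblasts are a source and a target of IGF1 while alveoli form.

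The promoters of 2 genes that were lower in Igf1r-deleted libraries, Igf1r and Irs2, and of the gene that was higher, Igf1, are shown to give the sequence context of the members at both ends of the comparison. Each is the 250 bases before the RefSeq start on GRCm38.p6, written 5′ to 3′ on the gene's strand. Capitals mark the GC box GGGCGG and the E-box CACGTG on either strand, and no marked motif overlaps another in these 3 windows.
Igf1r, chr7:67952007-67952256, plus strand: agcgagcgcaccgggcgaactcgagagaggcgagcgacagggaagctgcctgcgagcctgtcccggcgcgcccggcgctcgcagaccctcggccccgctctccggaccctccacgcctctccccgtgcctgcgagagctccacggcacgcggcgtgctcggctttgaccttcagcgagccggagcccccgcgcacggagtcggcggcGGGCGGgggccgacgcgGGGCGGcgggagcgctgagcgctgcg
Irs2, chr8:11008930-11009179, minus strand: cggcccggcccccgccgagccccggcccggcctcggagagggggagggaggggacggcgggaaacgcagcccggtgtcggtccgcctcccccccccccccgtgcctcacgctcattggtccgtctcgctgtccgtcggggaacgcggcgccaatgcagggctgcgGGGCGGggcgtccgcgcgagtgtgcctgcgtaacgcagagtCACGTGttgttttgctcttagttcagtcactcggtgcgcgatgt
Igf1, chr10:87860861-87861110, plus strand: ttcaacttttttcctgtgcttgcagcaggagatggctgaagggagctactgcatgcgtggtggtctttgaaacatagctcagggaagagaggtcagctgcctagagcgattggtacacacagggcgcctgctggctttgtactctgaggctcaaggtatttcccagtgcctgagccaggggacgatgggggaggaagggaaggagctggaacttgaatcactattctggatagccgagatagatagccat

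The Igf1r window was 77.6% G and C with 42 CpG pairs, and that of Irs2 was 72.8% with 34, against a median of 52.4% and 6 over the 32851 promoters of the RefSeq table. The Igf1 window was close to that median, with 52.8% and 5. It lies within the GENCODE M21 span of Igf1, which starts at 87858265, while the Igf1r and Irs2 windows lie before theirs. Igf1r had 2 GC boxes, Irs2 had 1 and Igf1 had none, where 32.7% of all promoters held at least 1. Irs2 had 1 E-box, which 6.02% of promoters hold. The FOXO motif GTAAACA, held by 3.17% of promoters, and the cAMP response element TGACGTCA, held by 1.55%, had no match in any of the 7 windows of the 6 members with an entry (Ghr has 2). A match describes these letters only.

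Library totals were 35116766 to 37597857 counts, and the members had 3408 to 21581 counts in each library, where counting error is at most 1.71%. The spread between libraries therefore sets the precision. Between libraries of equal genotype, chi-square per degree of freedom was 23.2 to 50.7, where counting noise alone gives about 1. Fibroblast markers such as Col1a1 and Mfap4 were abundant, with 42400 to 58100 CPM (counts scaled to library size, with edgeR's TMM factors) in the sum of 12 markers. That sum was 57000 to 58100 CPM in both controls and Igf1r-deleted replicate 1, but lower in Igf1r-deleted replicate 2 (42400 CPM) and replicate 3 (45600 CPM). Of 12 myofibroblast markers 8 were higher and 4 lower with Igf1r deleted (median log2 fold change 0.378), and of 12 lipofibroblast markers 5 were higher and 7 lower (median −0.0832). The part of these marker differences in the members' values was not tested. The sums were 504 to 1110 CPM for 12 epithelial markers, 317 to 868 CPM for 12 endothelial markers and 200 to 554 CPM for 11 hematopoietic markers, and none of these markers was at 0 in every library. The genotypes were not balanced for sex. The 4 Y-linked genes examined were expressed in both controls and in Igf1r-deleted replicate 2 and at or near 0 in Igf1r-deleted replicates 1 and 3, which alone had Xist above 5 CPM (170 and 435 CPM). The control libraries also differed from each other, and replicate 1 was the higher of them in Insr, Igf2r and Irs2. For several members and lists, the value without control replicate 1 is given beside the result. For genes outside the members it is not given.

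Of the 7 members, 6 had a lower and 1 a higher level with Igf1r deleted, and their median log2 fold change was −0.37 against 0.015 over all 15298 genes tested. Igf1r itself is the floxed gene, so its lower level was set by the design. It is nevertheless part of that count, of the median and of the counts of members below. Igf1r was at 52.6% and Irs2 at 56.1% of the control mean, Insr and Igf2r were lower by a smaller margin, Igf1 was slightly higher, and Irs1 and Ghr had overlapping levels. No member, and 0.00% of all genes, had an adjusted p-value under 0.05 in the quasi-likelihood test of edgeR, adjusted by Benjamini-Hochberg. Before adjustment 1897 genes had a p-value under 0.05, 6.75% of those tested lower and 5.65% higher in Igf1r-deleted libraries. The members past that level were Igf1r, Irs2, Insr and Igf2r, all lower, and Igf1, higher. In fits that leave out 1 Igf1r-deleted library the members past it numbered 3 or 4. Of all genes, 4.15% to 11.6% were lower and 2.43% to 9.4% higher at that level in those fits. Igf1r and Irs2 were past it in each of these fits. Without control replicate 1 the log2 fold changes of Irs2, Insr and Igf2r were −0.51, −0.23 and −0.29. The same 5 genes had no overlap between the genotypes, in 4 lower and 1 higher, where 14.9% of all genes were lower and 16.0% higher without overlap. DESeq2's Wald test called Igf1r and Irs2 at an adjusted p-value under 0.05, as it did 200 genes, or 1.70% of the 11735 to which it gave one.

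**Figure D1:**
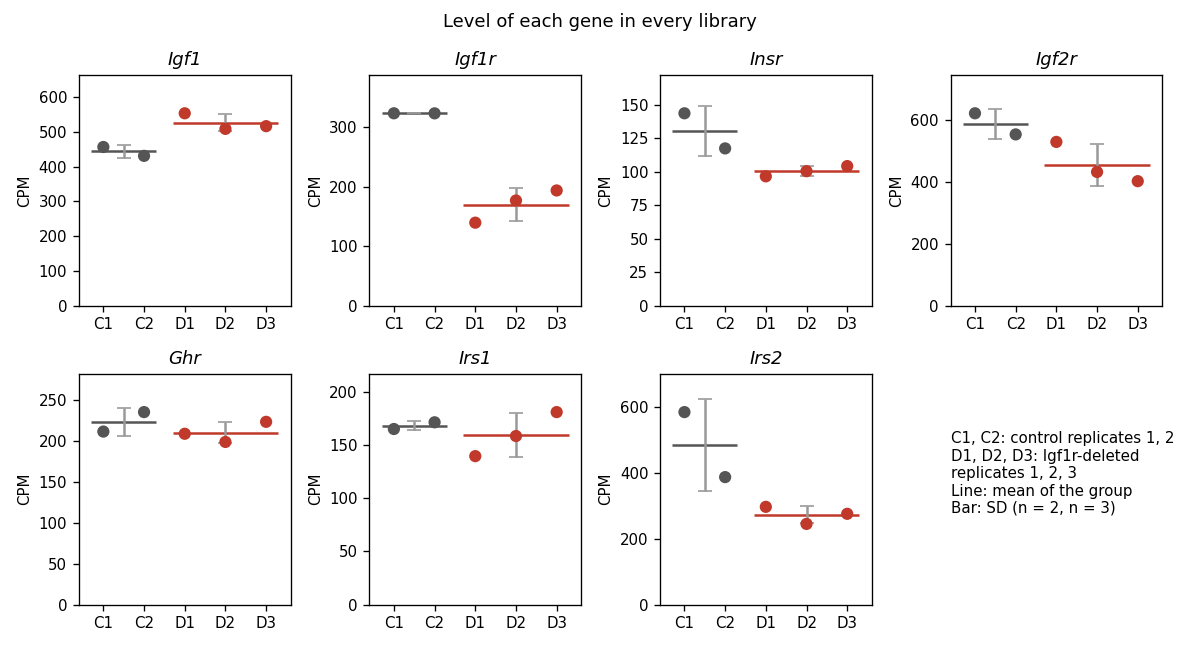
Level of the 7 genes in CPM (vertical axis, linear from 0) in each of 5 libraries, with 2 controls in gray and 3 Igf1r-deleted libraries in red; lines are group means and bars the SD. Igf1r-deleted libraries lie below both controls for Igf1r, Insr, Igf2r and Irs2, above both for Igf1, and on no single side of the controls for Irs1, while for Ghr replicate 3 lies between the controls and replicates 1 and 2 below.

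Igf1r, at chr7:67952827-68233668 (mm10, plus strand), is the gene with the floxed allele and checks the genotypes. Its level was 324 CPM in each control against 140, 177 and 194 CPM in Flox/Flox replicates 1, 2 and 3 (mean 170 ± 27.8 CPM, SD, n = 3). Against the control mean these were 43.2%, 54.7% and 59.9%, so each deleted library kept a large part of the Igf1r reads, and replicate 1 kept the least. The log2 fold change was −0.93 (standard error 0.14, 95% interval −1.26 to −0.59), that is 0.526 of the control level. The unadjusted p was 0.000301, rank 11 of all genes tested, and the edgeR adjusted p was 0.354. Across 9 alternative analyses the adjusted p spanned values from 1.06e-05, with DESeq2's Wald test, to 0.474. Either control gave nearly the same result, the log2 fold change being −0.93 when replicate 1 was left out and −0.94 when replicate 2 was. The controls differed by an SD of only 0.0757 CPM in Igf1r, far less than for the other members, so that pair gives little measure of their spread. In bulk RNA, fewer cells of a type and less RNA per cell cannot be told apart, and a count over the whole gene cannot tell a transcript of an intact allele from one that lacks the floxed part.

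The sister receptor gene Insr, at chr8:3122061-3279617 (mm10, minus strand), encodes the insulin receptor. Its level was 144 and 117 CPM in controls against 96.6, 100 and 104 CPM in Flox/Flox libraries. All 3 deleted libraries lay below both controls and close together, with an SD of 3.83 CPM against 18.5 CPM for the controls. The log2 fold change was −0.38 (standard error 0.11, 95% interval −0.64 to −0.11, edgeR unadjusted p = 0.0117, adjusted p = 0.354). The whole interval lay below 0, so a higher level of Insr mRNA in Igf1r-deleted cells was not seen. Without control replicate 1, which had the highest Insr, the log2 fold change was −0.23 (edgeR unadjusted p = 0.097), and without control replicate 2 it was −0.53. With both controls and Igf1r-deleted replicate 2 alone it was −0.38 (edgeR unadjusted p = 0.0636).

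Insr was lower by less than Igf1r, so the ratio of Insr to Igf1r was higher although Insr itself was not. Per kilobase of exon, a scale on which genes can be compared, the ratio of Insr to Igf1r was 0.542 and 0.443 in controls against 0.844, 0.693 and 0.656 in the Igf1r-deleted libraries. Every deleted library lay above both controls. The log2 ratio was higher by 0.57, with an exact permutation p of 0.1, two-sided, which is the smallest that the 10 ways of choosing 2 of 5 libraries allow. It was higher by 0.71 when control replicate 1 was left out and by 0.42 when control replicate 2 was. The share of Insr in the summed level of both receptors was 35.1% and 30.7% in controls against 45.8%, 40.9% and 39.6% in the deleted libraries. By counts over the whole gene, Igf1r remained the more abundant receptor mRNA in all 5 libraries. In the deleted libraries those counts can include transcripts that lack the floxed part, and so can the ratios, shares and sums built on them. The level of intact Igf1r mRNA relative to Insr is therefore not known there. The summed level of both receptors was 29.7 and 27.8 CPM per kb in controls against 15.3, 17.8 and 19.1 CPM per kb in the deleted libraries (exact permutation p = 0.1, two-sided).

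**Figure D2:**
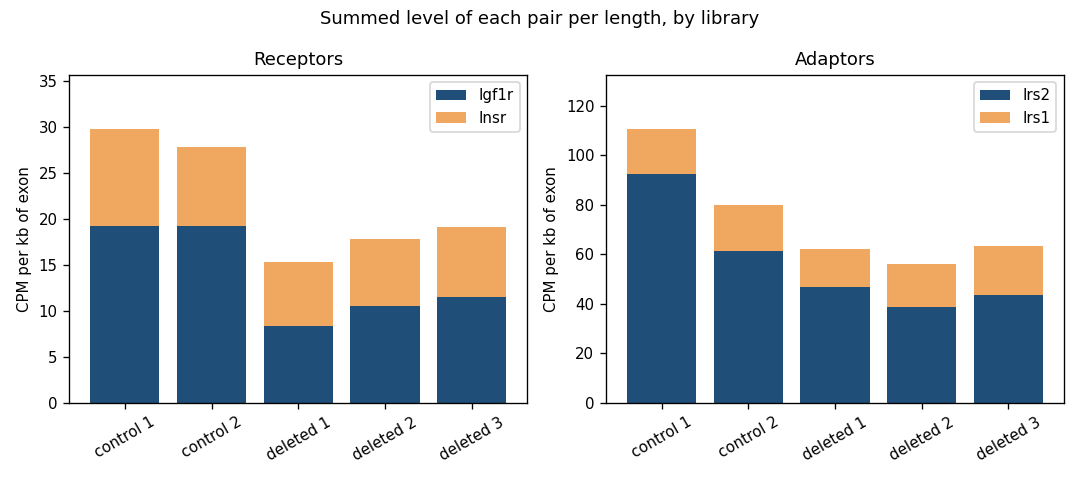
Stacked bars of CPM per kb of exon in each library, for the receptors Igf1r and Insr and the adaptors Irs2 and Irs1; the height is the sum of the pair and the axis starts at 0. The receptor sum was 27.8 CPM per kb or more in both controls and 19.1 or less in the Igf1r-deleted libraries, and the gene with the smaller difference was Insr among the receptors and Irs1 among the adaptors.

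Igf2r, the receptor gene without a kinase, lies at chr17:12682406-12769664 (mm10, minus strand). It had 621 and 553 CPM in controls against 529, 432 and 402 CPM in Flox/Flox libraries. Igf1r-deleted replicate 1 lay just under control replicate 2, and the other two deleted libraries were lower. The log2 fold change was −0.37 (standard error 0.14, 95% interval −0.71 to −0.03, edgeR unadjusted p = 0.0349, adjusted p = 0.384), and leaving out each library gave −0.50 to −0.29. The unadjusted p from edgeR was 0.151 without control replicate 1, 0.0989 without Igf1r-deleted replicate 2 and 0.123 without Igf1r-deleted replicate 3. It was 0.077 with Xist as a covariate and 0.0696 with the replicate number as a block. The gene is imprinted, and the antisense transcript Airn runs across part of it. Airn had 16.4 and 14.5 CPM in controls against 14.0, 12.4 and 12.0 CPM in Flox/Flox libraries, and no exon of it overlaps one of Igf2r in GENCODE M21.

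The ligand gene Igf1, at chr10:87858265-87937042 (mm10, plus strand), was the only member with a higher level. It had 456 and 431 CPM in controls against 553, 509 and 516 CPM in Flox/Flox libraries, and every deleted library lay above both controls. The difference was small, with a log2 fold change of 0.25 (standard error 0.10, 95% interval 0.0023 to 0.49, edgeR unadjusted p = 0.0484, adjusted p = 0.399). Leaving out each library gave 0.19 to 0.28, and in none of those fits was the unadjusted p under 0.05 (edgeR, 0.0746 to 0.188). It was not under 0.05 either in a comparison of both controls with Igf1r-deleted replicate 2 alone, the deleted library with Y-linked expression (log2 fold change 0.19). Myofibroblasts and macrophages also make IGF1. Of the 12 myofibroblast markers, 4 were higher and 2 lower at an unadjusted p-value under 0.05, beside 5.65% and 6.75% of all genes. Acta2, which encodes smooth muscle actin and is 1 of the 4, had 407 and 655 CPM in controls against 764, 1067 and 907 CPM in Flox/Flox libraries. The 2 lower ones, opposite in direction to Igf1, were Enpp2 and Hhip. Enpp2 had 66.3 and 49.6 CPM in controls against 39.4, 32.1 and 41.6 CPM in Flox/Flox libraries. Hhip had 1078 and 808 CPM against 838, 558 and 644 CPM. Without control replicate 1, which leaves 1 control, 9 myofibroblast markers were higher and 3 lower, with a smaller median log2 fold change of 0.156. All 11 hematopoietic markers tested were lower in Igf1r-deleted libraries (9 of 11 without control replicate 1), with a sum of 554 and 374 CPM in controls against 441, 327 and 200 CPM in Flox/Flox libraries, opposite in direction to Igf1. The part of either cell type in the level of Igf1 was not tested. Relative to its receptor, Igf1 was 2.39 and 2.26 times Igf1r per kb in controls against 6.72, 4.87 and 4.51 times in the deleted libraries (difference of the log2 ratio 1.19, exact permutation p = 0.1, two-sided).

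The growth hormone receptor gene Ghr, at chr15:3317760-3583492 (mm10, minus strand), had 211 and 235 CPM in controls against 209, 199 and 223 CPM in Flox/Flox libraries. The genotypes overlapped. The log2 fold change was −0.09 (95% interval −0.33 to 0.16, edgeR adjusted p = 0.742), so differences beyond that interval were not seen in either direction. Without control replicate 1 the log2 fold change was −0.17 (edgeR unadjusted p = 0.232). Of 11 genes listed for growth hormone signaling, 1 was lower at an unadjusted p-value under 0.05, or 9.09%, near the 6.75% of all genes. That gene was Cish, a STAT5-induced inhibitor of cytokine receptors, with 72.6 and 59.1 CPM in controls against 48.4, 41.9 and 35.9 CPM in Flox/Flox libraries. Its log2 fold change was −0.64 (standard error 0.15, edgeR adjusted p = 0.354). The list had 8 genes lower and 3 higher, with a median of −0.11. Without control replicate 1, 10 were lower and 1 higher, with a median of −0.07.

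The adaptor gene Irs2, at chr8:10984681-11008458 (mm10, minus strand), had 585 and 387 CPM in controls against 297, 245 and 276 CPM in Flox/Flox replicates 1, 2 and 3. All deleted libraries lay below both controls, and control replicate 1 stood far above control replicate 2. The log2 fold change was −0.83 (standard error 0.18, 95% interval −1.26 to −0.41, edgeR unadjusted p = 0.00216, adjusted p = 0.354), or 0.561 of the control level. The size depended on the control used, being −0.51 when control replicate 1 was left out and −1.11 when control replicate 2 was. In the latter case the adjusted p was 0.0495 from the same edgeR test, and across the 9 alternative analyses it lay between 0.0042 and 0.474. With Igf1r-deleted replicate 2 as the single deleted library it was −0.99, so the libraries with Y-linked expression alone gave the same direction.

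The other adaptor gene, Irs1, at chr1:82233101-82291416 (mm10, minus strand), had 165 and 171 CPM in controls against 140, 158 and 181 CPM in Flox/Flox libraries. Replicate 3 of the deleted group lay above both controls and the other two below. The log2 fold change was −0.08 (95% interval −0.37 to 0.22, edgeR adjusted p = 0.816). It was 0.0067 without Igf1r-deleted replicate 1, and its sign is therefore not settled. Reads of Irs1 are less certain than the others, because 30.9% of its exon length overlaps the annotated gene Gm9747 on the other strand and the sources used here do not say whether counting used strand. Gm9747 is not among the symbols of the count table, so its level could not be read. The overlap for Irs2 is 2.56%, with 9530052E02Rik, which had 2 counts in all.

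The ratio of Irs2 to Irs1 per kb was 5.12 and 3.27 in controls against 3.08, 2.24 and 2.20 in the Igf1r-deleted libraries. On the log2 scale the difference was −0.73, with an exact permutation p of 0.2, two-sided, although no deleted library reached the ratio of either control. The difference was −0.40 when control replicate 1 was left out and −1.05 when control replicate 2 was. Irs2 stayed the more abundant adaptor mRNA in every library, with 76.6% to 83.7% of the sum of both adaptors per kb in controls against 68.8% to 75.5% in the deleted libraries.

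**Figure D3:**
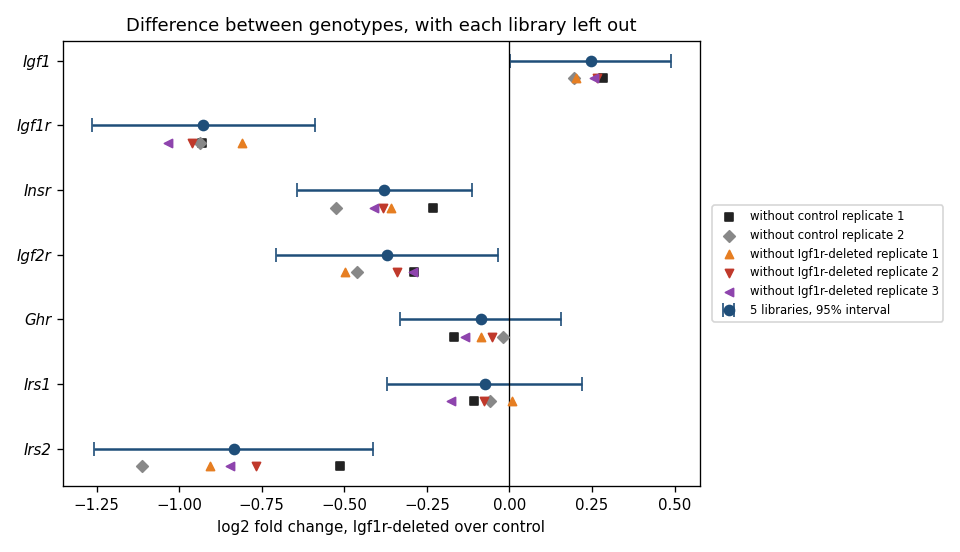
Log2 fold change of Igf1r-deleted over control (horizontal axis) for the 7 genes, as circles with 95% intervals from edgeR's quasi-likelihood test; the smaller symbols give the value with each library left out. The intervals of Igf1r, Irs2, Insr and Igf2r lie below 0 and that of Igf1 above it, and Irs2 moves from −1.11 to −0.51 according to the control left out while Igf1r stays between −1.03 and −0.81.

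In control cells the order of levels per kb of exon was Irs2 (76.8 CPM per kb), Igf2r (63.1), Igf1 (44.8), Ghr (24.7), Igf1r (19.3), Irs1 (18.4) and Insr (9.49). These levels stood between the 71.2 and 96.8 percentiles of the 15138 tested genes with an exon length. Irs2 and Igf2r overlapped between the control libraries, and no other neighbors in the order did, although Igf1r and Irs1 were separated by less than 1 CPM per kb on average. In Igf1r-deleted cells the order was Igf1 (53.1 CPM per kb), Igf2r (48.8), Irs2 (43.1), Ghr (23.2), Irs1 (17.4), Igf1r (10.1) and Insr (7.30). Igf1 overlapped Igf2r and Igf2r overlapped Irs2 between libraries, and the other neighbors did not overlap. The exon lengths are those of GENCODE M21, which may differ from the gene models behind the counts.

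Genes that act at the receptors or on IRS proteins, from a list of 30 of which 27 were tested, were divided, with 13 lower and 14 higher and a median log2 fold change of 0.018. The single gene of that list with an unadjusted p-value under 0.05 was Socs3, an inducible inhibitor of cytokine and insulin receptor signaling. That was 3.7% lower and 0% higher, not above the 6.75% and 5.65% of all genes. Socs3 had 1647 and 1194 CPM in controls against 881, 802 and 836 CPM in Flox/Flox libraries (log2 fold change −0.76, standard error 0.15, edgeR adjusted p = 0.354). Of 21 genes of the PI3K and AKT core, 10 were lower and 11 higher (median 0.017), and 2 lower and 1 higher had an unadjusted p-value under 0.05, or 9.52% and 4.76%, near the 6.75% and 5.65% of all genes. These were Pik3r1, the p85α subunit that binds IRS proteins (log2 fold change −0.79, standard error 0.16), Inpp5d, a phosphatase of leukocytes (−0.74, standard error 0.26), and Pik3r3, another regulatory subunit (0.57, standard error 0.23). Without control replicate 1, 12 of the 21 core genes were lower and 9 higher. An unadjusted p-value under 0.05 from edgeR was then found for 1 lower and 0 higher, or 4.76% and 0%. Of all genes, 1.61% were lower and 1.15% higher at that p-value in the same fit. Pik3r1 also belongs to the glucocorticoid list described next and Socs3 to the immediate early list.

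Irs2, Insr and Igf2r had the same order of libraries as several response lists in 1 respect: control replicate 1 was highest, control replicate 2 next and all Igf1r-deleted libraries lower. Of 20 genes known to be induced by glucocorticoids, all 20 had a lower level in Igf1r-deleted libraries and 16 had an unadjusted p-value under 0.05 (median log2 fold change −0.995). Without control replicate 1, 18 were lower, 8 of them with an unadjusted p-value under 0.05, and the median was −0.56. Their summed level was 8790 and 5330 CPM in controls against 4050, 3440 and 4010 CPM in Flox/Flox libraries. The 4 with the smallest p-values were Pdk4, a kinase that turns off pyruvate dehydrogenase, the transcription factor genes Klf9 and Cebpd, and Tsc22d3, which encodes the glucocorticoid-induced leucine zipper protein. Tsc22d3 had 648 and 222 CPM in controls against 134, 97.0 and 100 CPM in Flox/Flox libraries, so the controls differed from each other more than control replicate 2 did from the deleted libraries. Of 18 FOXO target genes, 17 were lower, and 11 of them had an unadjusted p-value under 0.05 (median −0.52). Without control replicate 1, 14 were lower, 3 at that p-value, and the median was −0.21. Txnip, an inhibitor of thioredoxin and of glucose uptake, had 1322 and 707 CPM in controls against 441, 375 and 407 CPM in Flox/Flox libraries. Foxo3, the gene of a transcription factor that AKT holds out of the nucleus, had 192 and 125 CPM in controls against 101, 91.7 and 95.7 CPM in Flox/Flox libraries (edgeR adjusted p = 0.354). All 20 immediate early and stress genes were lower, 11 with an unadjusted p-value under 0.05 (median −0.40), led by Egr2 (log2 fold change −0.82, standard error 0.09) and the heat shock co-chaperone gene Dnajb1, at 285 and 291 CPM in controls against 170.5, 129 and 132 CPM in Flox/Flox libraries. Without control replicate 1, 17 were lower, 6 at that p-value, with a median of −0.24. These counts stand beside 6.75% of all genes lower at that p-value with all libraries and 1.61% without control replicate 1. Regardless of p-value, 7301 of 15298 genes were lower with all libraries and 7462 of 15695 without control replicate 1. The lists were chosen with earlier results of these data known, and the part of that choice in these counts was not tested. The lists share Pdk4, Pik3r1, Socs3 and Rictor with others described here. Igf1r did not follow these lists among the controls, where it was equal. The part of these responses in the levels of Irs2, Insr and Igf2r was not tested.

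**Figure D4:**
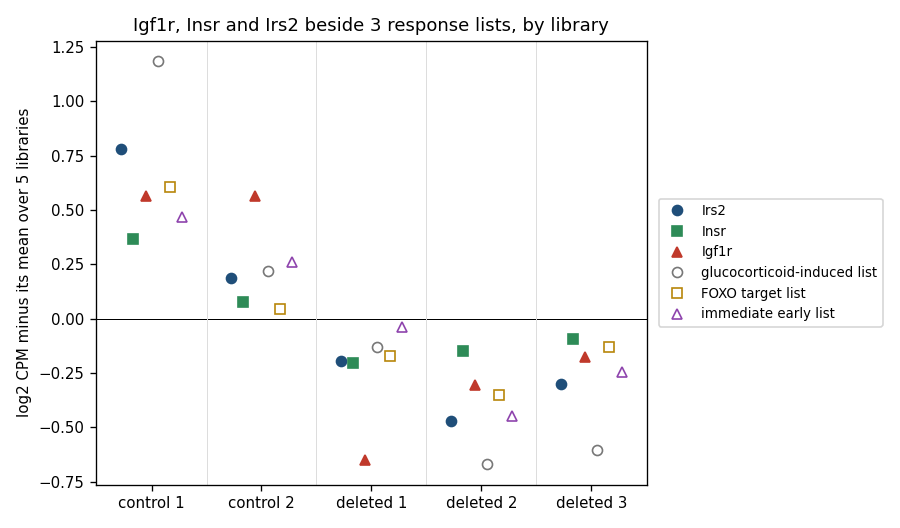
Log2 CPM minus its own mean over the 5 libraries (vertical axis), for Igf1r, Insr and Irs2 (filled symbols) and the mean of 3 gene lists (open symbols), in each library. Irs2 was 0.78 above its mean in control replicate 1 and 0.19 above in control replicate 2, the glucocorticoid-induced list 1.19 and 0.22, and Igf1r 0.56 in both.

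Among 9690 genes with a mean log2 CPM of at least 3, those with a pattern most like Igf1r over the 5 libraries were Sertad1, Egr2, Per2, D4Wsu53e and C3. Their root mean square difference from Igf1r in centered log2 CPM was 0.148 to 0.202, against an SD of Igf1r of 0.543. Sertad1 had 97.6 and 86.5 CPM in controls against 50.7, 52.7 and 54.9 CPM in Flox/Flox libraries. No gene came as near to Igf1r as several did to Irs2, for which the nearest were 1810011O10Rik, Pik3r1, Socs3, Ttpal and Fzd10 with differences of 0.0421 to 0.0733 (SD of Irs2 0.50). Pik3r1, for example, had 409 and 277 CPM in controls against 206, 191 and 199 CPM in Flox/Flox libraries.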

How the data were processed

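RNA-Seq counts of 5 libraries were analysed, with genotype and replicate number from the sample labels. Per the paper's methods and the labels, the authors prepared NEBNext Ultra libraries, used Trim Galore for trimming, Bowtie2 for alignment to mm10 and GenomicAlignments for counting, and deposited raw, unnormalized counts per gene. Alignment settings, annotation and use of strand are not given in the sources used here. Bowtie2 does not split reads over introns, which can lower the counts of genes with many short exons.

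The quasi-likelihood test of edgeR 4.0.16 (in R 4.3.3, with limma 3.58.1) was applied with TMM factors, filterByExpr and genotype as the only term, two-sided, and p-values of the 15298 tested genes were adjusted by Benjamini-Hochberg. A prior count of 2 was added for log2 CPM. Intervals are 95% from the fit's standard error. Ratios within a library were compared by an exact permutation test over libraries, and those other than Insr to Igf1r were chosen after values were seen. The alternatives were DESeq2 1.42.0 (Wald test, no adjusted p for 3563 genes), limma voom, DESeq2's size factors, library totals, upper-quartile factors, filters of at least 1 count in any library or 10 counts in every library, a replicate block, Xist as a covariate, and each library left out. List values and pair ratios without single libraries were added after seeing the data. The test was tried on simulated counts.

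Positions and exon lengths came from GENCODE M21 (mm10), where 22121 of 23478 symbols were found directly and 991 by an older symbol. Promoters came from RefSeq (GRCm38.p6). The members and gene lists were chosen with earlier results of these data known. Outside the members, the rule for names took, from each pathway list, up to 4 genes with the smallest unadjusted p under 0.05, and the 5 genes most like Igf1r and most like Irs2. Nothing says that libraries of a genotype came from separate animals, so p-values measure the spread between these libraries.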

Additional observations from a re-analysis of the deposited data

How the results depend on the processing

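Igf1r, Insr, Igf2r and Irs2 were lower, and Igf1 higher, under each of the 9 alternatives and with each library left out. With DESeq2's Wald test, 200 genes and 2 members passed an adjusted p of 0.05, and Igf1r had a log2 fold change of −0.94. Igf1r-deleted replicate 3 has no control of the same number and so adds nothing to the genotype term under a replicate block, where 136 genes, 2 members (Igf1r at −1.04 and Irs2 at −0.82) passed and 3 members had an unadjusted p under 0.05. The numbers are not stated to pair the libraries. Deviations from the group means correlated by 0.208 for number 1 and 0.121 for number 2, and control replicate 2 correlated by 0.119 with Igf1r-deleted replicate 3. The deviations of 2 controls from their own mean mirror each other, so these correlations cannot show whether the numbers pair the libraries. With Xist as a covariate 1 gene passed, and 3 members had an unadjusted p under 0.05. Under the block and under the covariate these 3 were Igf1r, Insr and Irs2. Of all genes, 7.34% were lower and 6.1% higher at that p under the block, and 6.07% and 4.06% under the covariate.

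Leaving out each library gave 0 to 45 genes and 0 to 1 members past the adjusted threshold, with 45 and 1 (Irs2) without control replicate 2. Members with an unadjusted p under 0.05 were then 2 to 4, the fewest without control replicate 1, and the log2 fold change of Irs1 ran from −0.18 to 0.0067. Without Igf1r-deleted replicates 1 and 3, an alternative chosen after seeing the data, 10 genes passed and 3 members had an unadjusted p under 0.05; the single deleted library was assumed to vary like the controls. The cause of these shifts was not tested. Counting error was at most 1.71% for a member in any library.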

Other observations

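The other IGF ligands, binding proteins and their proteases, a list of 19 genes of which 15 were tested, was divided, 9 lower and 6 higher with Igf1r deleted (median log2 fold change −0.15). With edgeR's quasi-likelihood test none had an adjusted p under 0.05. An unadjusted p under 0.05 was found for 3 lower and 1 higher, or 20% and 6.67%, beside 6.75% and 5.65% of all genes. Without control replicate 1, 16 were tested, 8 lower and 8 higher (median −0.05). None of them then had an unadjusted p under 0.05, beside 1.61% of all genes lower and 1.15% higher. Pappa2, a protease that cuts IGF binding proteins, had 53.6 and 80.0 CPM in controls against 96.4, 144 and 105 CPM in Flox/Flox libraries. Igfbp3, a carrier of circulating IGF, had 264 and 151 CPM against 141, 97.2 and 87.4 CPM. Igf2bp2, an RNA-binding protein gene, had a mean of 31.6 CPM in controls and 22.5 CPM in Flox/Flox libraries. Igf2 had 377 and 408 CPM against 350, 143 and 145 CPM, with Igf1r-deleted replicate 1 near the controls.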
